A study of Mus musculus with 16 samples.

Results

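The genes described here are the machinery that carries a cell from G1 through S phase to mitosis. The 40 genes were found by their exact symbols in the deposited tables, out of 25803 genes in all. They fall into 16 regulators of G1 (E2F factors, pocket proteins, D-type cyclins, their kinases, kinase inhibitors and Myc), 12 genes of the G1/S transition and 12 genes of mitosis. The list was chosen by role in the cycle, after an earlier look at these libraries in which E2f1 and genes of DNA replication had high read counts in refed knockout livers. Their values in the refed knockout livers are therefore given as a description, with calls and standard errors but no p-values. Of the 40 genes, 37 passed the filter on low counts. E2f7, Ccnb1 and Bub1 did not pass, with 106, 87 and 26 counts over all 16 libraries. Bub1b and Aurkb passed only because the refed knockout libraries were included.

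RNA was sequenced in bulk from the livers of male mice kept on a high-fat diet (12 weeks), with 4 libraries in each of 4 groups. Control mice, called WT in the design text, and mice with a liver knockout of Cpt1a (CPT1a LKO, here LKO) were examined either fasted for 16 h or fasted for 16 h and then refed for 6 h. Cpt1a encodes carnitine palmitoyltransferase 1A, by which long-chain fatty acids enter mitochondria to be oxidised. The labels give neither the allele nor the Cre driver, nor the age of the mice, and do not say that each library is 1 mouse, so p-values measure the spread between these libraries. Libraries held between 14721601 and 24618230 counts. Cpt1a itself stood at 487 ± 83.2 CPM (counts divided by the library total in M counts after scaling by TMM factors) in fasted control and 101 ± 17.3 CPM in fasted LKO livers, and at 457 ± 137 and 54.2 ± 16.6 CPM in refed control and refed LKO livers (SD, n = 4). Hepatocyte markers such as Alb were abundant, with a summed level of at least 68280 CPM in every library. The libraries are called by the names of their count columns: fasted control libraries run from S40 to S43 and fasted LKO libraries from S44 to S47. S48 to S51 come from refed controls, and the refed LKO libraries run from S52 to S55. In bulk tissue, a change in the number of cells of a type and a change in RNA per cell cannot be told apart.

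Entry into the cell cycle is governed by cyclin D with CDK4 or CDK6, which phosphorylate the pocket proteins RB1, RBL1 and RBL2 and so release E2F factors from repression. E2F factors then drive genes for nucleotide supply and DNA replication, while genes of G2 and mitosis are switched on later, through promoters that often hold CHR and CCAAT elements. Most hepatocytes of an adult liver rest outside the cycle, and enter it after partial hepatectomy or injury.

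The highest levels were those of G1 regulators and the lowest those of mitotic genes. Divided by gene length, the highest of all was Cdk4, the kinase partner of the D-type cyclins, at 13.1 ± 1.03 CPM per kb in fasted control livers. E2f4, a mostly repressive E2F factor, followed at 8.81 ± 0.408 and Ccnd3, a D-type cyclin, at 5.71 ± 0.384 CPM per kb. E2f1, the first-described activating E2F factor, was the highest of the G1/S genes at 1.87 ± 0.0985 CPM per kb. Of the mitotic genes, Aurka, a centrosome kinase, led at 1.54 ± 0.285 CPM per kb, and Cdc20, an activator of the anaphase-promoting complex, came next at 0.602 ± 0.298. The DNA topoisomerase Top2a was at 0.082 ± 0.029 and the checkpoint kinase Bub1 at 0.00335 ± 0.00669 CPM per kb, in 3 of 4 libraries at 0 counts. The mitotic genes thus rested on few reads: Cdk1, the kinase that starts mitosis, had between 9 and 118 counts in a library, and Top2a between 5 and 116. A count of 0 allowed a level of up to 0.119 to 0.204 CPM, depending on the library, by counting error only.

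Promoter windows show the sequence elements by which the G1/S and the mitotic genes are usually set apart, so 4 windows of each kind are given. They are the 250 bases before the annotated start in RefSeq on GRCm38.p6, read on the strand of the gene. Letters in capitals mark an E2F element (TTCCCGC or TTGGCGC or TTCGCGC or TTGCCGC) or a CHR element (TTTGAA or TTCGAA), each on either strand. The G1/S windows lie at chr17:56303087-56303336 on the plus strand for Uhrf1 (the first of 2 annotated starts), chr2:157204535-157204784 on the minus strand for Rbl1, chr9:109875329-109875578 on the plus strand for Cdc25a and chr7:102441445-102441694 on the plus strand for Rrm1.
Uhrf1: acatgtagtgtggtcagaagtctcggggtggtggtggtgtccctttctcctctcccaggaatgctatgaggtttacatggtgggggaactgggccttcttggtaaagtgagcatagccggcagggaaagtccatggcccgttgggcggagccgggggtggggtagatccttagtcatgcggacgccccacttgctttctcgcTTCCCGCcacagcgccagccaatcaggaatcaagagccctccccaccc
Rbl1: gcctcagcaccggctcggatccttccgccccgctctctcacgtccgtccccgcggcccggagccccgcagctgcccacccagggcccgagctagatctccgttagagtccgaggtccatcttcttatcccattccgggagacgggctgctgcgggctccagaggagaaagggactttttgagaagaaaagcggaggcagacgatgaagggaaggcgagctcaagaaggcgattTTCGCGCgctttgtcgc
Cdc25a: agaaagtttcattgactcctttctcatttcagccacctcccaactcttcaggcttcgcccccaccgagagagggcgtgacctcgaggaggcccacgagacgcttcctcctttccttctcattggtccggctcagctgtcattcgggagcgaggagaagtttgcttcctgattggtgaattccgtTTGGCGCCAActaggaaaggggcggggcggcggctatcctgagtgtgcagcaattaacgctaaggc
Rrm1: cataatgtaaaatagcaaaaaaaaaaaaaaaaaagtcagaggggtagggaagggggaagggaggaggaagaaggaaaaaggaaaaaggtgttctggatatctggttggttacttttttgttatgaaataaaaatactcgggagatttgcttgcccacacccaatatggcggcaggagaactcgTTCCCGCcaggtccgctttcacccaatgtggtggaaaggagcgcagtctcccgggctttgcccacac

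The mitotic windows lie on the minus strand, at chr10:69352913-69353162 for Cdk1, chr11:99024190-99024439 for Top2a, chr9:70421555-70421804 for Ccnb2 and chr4:118437344-118437593 for Cdc20.
Cdk1: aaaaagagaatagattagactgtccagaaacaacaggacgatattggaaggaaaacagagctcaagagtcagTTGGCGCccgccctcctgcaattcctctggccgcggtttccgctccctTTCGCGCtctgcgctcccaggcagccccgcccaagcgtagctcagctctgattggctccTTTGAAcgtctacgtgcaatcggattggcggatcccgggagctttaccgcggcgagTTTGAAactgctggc
Top2a: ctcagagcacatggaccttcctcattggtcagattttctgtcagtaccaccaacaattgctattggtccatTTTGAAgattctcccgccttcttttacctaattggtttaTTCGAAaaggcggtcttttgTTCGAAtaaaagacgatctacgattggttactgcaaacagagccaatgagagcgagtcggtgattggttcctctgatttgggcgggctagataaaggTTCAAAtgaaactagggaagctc
Ccnb2: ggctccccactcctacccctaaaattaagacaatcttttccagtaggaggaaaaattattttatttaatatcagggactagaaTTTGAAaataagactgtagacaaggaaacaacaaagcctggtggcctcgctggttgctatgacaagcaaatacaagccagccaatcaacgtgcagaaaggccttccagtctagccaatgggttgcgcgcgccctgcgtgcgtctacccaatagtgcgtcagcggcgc
Cdc20: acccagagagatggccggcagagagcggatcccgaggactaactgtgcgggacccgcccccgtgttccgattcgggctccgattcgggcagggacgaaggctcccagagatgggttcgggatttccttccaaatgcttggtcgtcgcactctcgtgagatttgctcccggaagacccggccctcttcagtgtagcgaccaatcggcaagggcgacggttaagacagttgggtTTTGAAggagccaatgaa

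Windows were found for 31 of the 40 genes. A gene with more than 1 window was counted if any of them held the element. An E2F element was present for 7 of 11 G1/S genes, 3 of 10 mitotic genes and 3 of 10 G1 regulators. The shares were 15.5% of the genes tested and 9.01% of all genes with a window. A CHR element was present for 6 of 10 mitotic genes and 2 of 11 G1/S genes, against 15% of the genes tested and 19.6% of all genes with a window. A CCAAT box (CCAAT on either strand) was present for 10 of 10 mitotic genes and 7 of 11 G1/S genes, against 40.4% of the genes tested and 37.5% of all genes with a window. Cdk1 held an E2F and a CHR element beside CCAAT boxes, and Top2a held CHR elements and CCAAT boxes with no E2F match. A match is a match of letters and not a shown binding site. The E2f1 and Tyms windows held none of the E2F letters searched. Each of these is the window of 1 annotated start, which may not be the start in use, and no other sequence of these genes was searched. It is therefore not shown that their promoters lack E2F elements. These are the windows of genes on a chosen list, and no test was made of the shares.

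In the refed state, edgeR called 8 of the 37 genes higher in LKO than in control livers and 0 lower, where 2.28% of all 14488 genes were called higher and 1.35% lower (adjusted p under 0.05). Calls are those of edgeR wherever no other tool is named. The called genes were E2f1, Rbl1, Cdc25a, Rrm1, Tyms and Uhrf1 of the 11 G1/S genes, Cdk1 and Top2a of the 10 mitotic genes, and 0 of the 16 G1 regulators. The median log2 fold change was 1.01 over the G1/S genes, 1.03 over the mitotic genes and 0.15 over the G1 regulators, against -0.01 over all genes tested. In 12 genes every refed LKO library exceeded every refed control library, and in 0 genes the reverse held; over all genes tested these shares were 6.70% and 5.03%. Bub1b, one of the 12, passed the filter only through the refed LKO libraries, where it was high. Aurkb passed in the same way, and both are part of the mitotic median. Since the list was chosen with this contrast in view, the counts are no support for it. Without S52, the refed LKO library with the highest level of 8 of the 11 G1/S genes and 9 of the 10 mitotic genes, the 8 calls became 3 (E2f1, Rrm1 and Uhrf1), and without the refed control library S48 they became 2 (E2f1 and Uhrf1). They became 4 without S55 and 5 without S49, S50 or S51. With the refed libraries alone in the fit, Rbl1, Tyms, Cdk1 and Top2a lost their calls and Cdk4 was called.

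After refeeding of LKO mice, 12 of the 37 genes were called higher than in fasted LKO livers and 4 lower, beside 9.28% and 8.78% of all genes tested. The 12 were E2f1, E2f2, Rbl1, Ccne2, Rrm1, Rrm2, Tyms and Uhrf1 of the G1/S genes, Cdk1 and Top2a of the mitotic genes, and E2f4 and Ccnd2 of the G1 regulators. The 4 lower genes were Ccnb2, Ccnd3, Cdk6 and Cdkn1b. The fold changes had a median of 1.30 on the log2 scale in the G1/S genes and 0.77 in the mitotic genes, against -0.02 in all genes tested. Groups did not overlap in 11 genes that were higher and 3 that were lower, beside 10.6% and 9.95% of all genes tested. Without S52 the 16 calls became 10, of which 0 were mitotic.

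In control livers, 0 of 37 genes were called higher on refeeding and 3 lower (Ccnd3, Cdk4 and Cdk6, all G1 regulators), beside 7.79% and 7.65% of all genes tested. E2f6 was not called by edgeR (log2 fold change 0.37, SE 0.13, edgeR adjusted p = 0.0574) and was called higher by DESeq2. No G1/S gene passed the test by edgeR or limma-voom, with 2 at an unadjusted p under 0.05 (Rrm1 and Uhrf1), and DESeq2 called 1, Uhrf1. No mitotic gene passed by any of the 3 tools, with 1 (Cdc20) at an unadjusted p under 0.05. Of all 14488 genes tested, 4343 had an unadjusted p under 0.05 by edgeR in this comparison. The medians were 0.15 in the G1/S genes and -0.46 in the mitotic genes, against 0.01 in all genes tested. All libraries of one group exceeded all of the other in 0 genes that were higher and 3 that were lower (Ccnd3, Cdk4 and E2f1), beside 10.4% and 10.1% of all genes (20.4% in either direction). The 3 calls became 0 without S42, S48 or S50 and 1 without S40, S43 or S49.

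In the fasted state the knockout had 3 genes called higher (E2f8, E2f6 and Cdk2) and 2 lower (E2f2 and E2f4) of 37, beside 5.75% and 6.48% of all genes tested. The medians were 0.10 in the G1/S genes and -0.15 in the mitotic genes, against 0.02 in all genes tested. Groups did not overlap in 2 genes that were higher (Rb1 and E2f8) and 3 that were lower (E2f1, E2f2 and E2f4), beside 8.30% and 8.57% of all genes. No mitotic gene was called by edgeR, DESeq2 or limma-voom, and 0 had an unadjusted p under 0.05, beside 3868 of all 14488 genes tested by edgeR. All 5 calls were lost without S40, S43 or S46 (without S43, Rb1 was called in their place), every fit that left out a library gave 0 to 3 calls, and 2 of them, E2f6 and Cdk2, rested on groups that overlapped.

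An interaction term asked whether the effect of the knockout differed between refed and fasted livers, and it was called for 1 of 37 genes, E2f1, beside 0.311% of all genes called higher and 0.228% lower. The other genes had no interaction call by edgeR. Among the G1/S genes 7 had an unadjusted p under 0.05 and DESeq2 called 3 (E2f1, E2f2 and Uhrf1), and limma-voom 1. Among the mitotic genes 4 had an unadjusted p under 0.05 (Ccna2, Cdk1, Cdc20 and Top2a), and 0 were called by any of the 3 tools. Among the G1 regulators 0 had an unadjusted p under 0.05. Of all 14488 genes tested, 2397 had an interaction with an unadjusted p under 0.05 by edgeR. Since the list was chosen with the refed knockout livers in view, these counts are no support for an interaction.

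**Figure D1:**
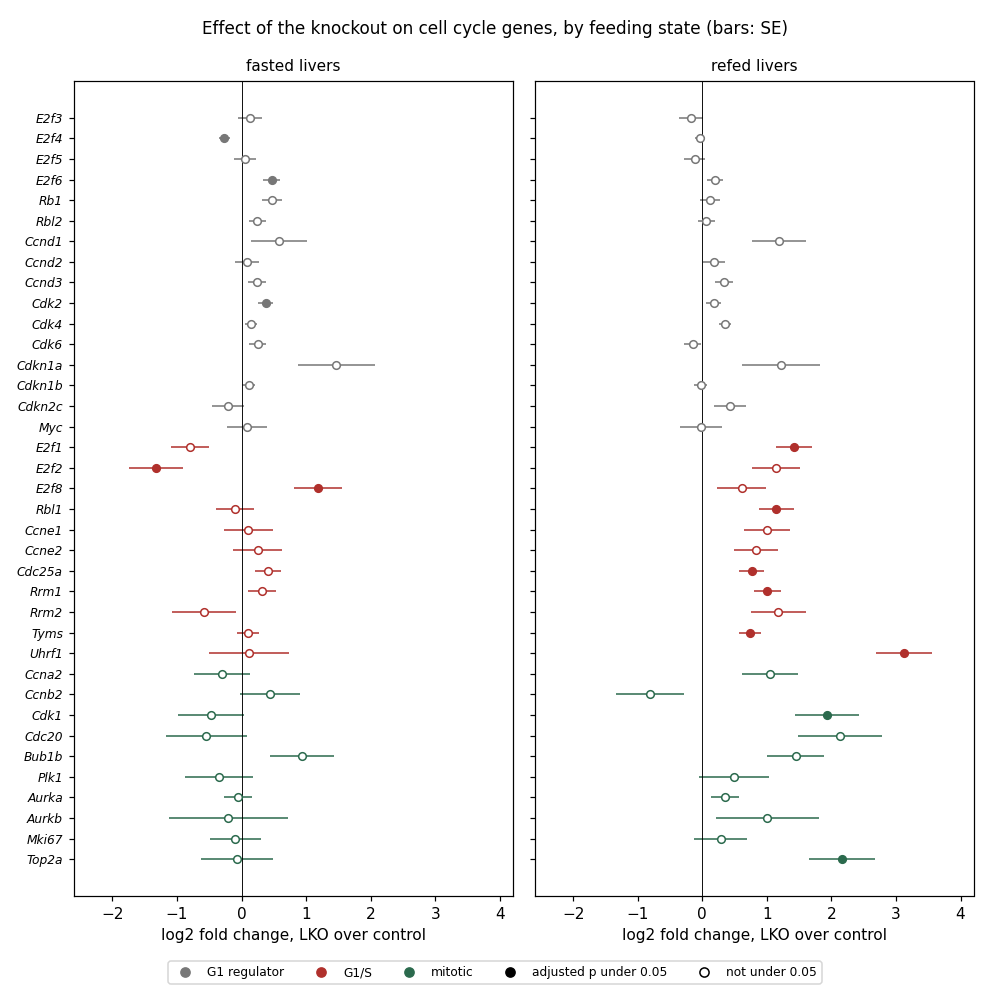
Log2 fold change of LKO over control in fasted livers (left) and refed livers (right) for the 37 genes tested, with bars for the standard error; filled points have an adjusted p under 0.05. In refed livers all 11 G1/S points lie right of 0, up to 3.12 for Uhrf1, as do 9 of the 10 mitotic points, and Ccnb2 lies left of 0. Of those 9, Bub1b and Aurkb passed the filter only through the refed LKO libraries.

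Of the D-type cyclins, Ccnd3 fell on refeeding of control mice. Ccnd1, the cyclin D that is induced when hepatocytes enter the cycle, stood at 12.6, 8.76, 14.1 and 9.02 CPM in fasted control and 13.6, 6.73, 18.3 and 28.0 CPM in fasted LKO livers. In the refed state it stood at 9.71, 9.30, 24.0 and 21.5 CPM in control and 40.8, 15.8, 31.8 and 59.1 CPM in LKO livers. Of the refed LKO libraries only S53 lay within the control range, and the log2 fold change of 1.19 ± 0.42 (± SE, as for all log2 fold changes) was not called. Ccnd3 was the most abundant D-type cyclin by count and by length in the fasted control livers. It fell from 49.5, 48.8, 54.9 and 47.1 CPM in fasted control to 32.5, 41.5, 31.0 and 36.0 CPM in refed control livers, without overlap (log2 fold change -0.51 ± 0.14, edgeR adjusted p = 0.0206; the call was lost without S42, S48 or S50). In LKO livers it went from 49.8, 50.9, 80.3 and 55.7 CPM to 48.04, 48.1, 43.8 and 38.5 CPM, a log2 fold change of -0.41 ± 0.14 whose call was lost in 13 of the 16 fits that left out a library. Ccnd2 was the lowest of the D-type cyclins at 3.37 ± 0.499 CPM in fasted control livers and was called higher after refeeding of LKO mice, by 0.58 ± 0.17 on the log2 scale (lost without S46, S47 or S55).

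The kinases that the D-type cyclins bind were lower in refed control livers. Cdk4 stood at 47.2, 39.9, 40.4 and 42.1 CPM in fasted control and 33.8, 32.8, 35.7 and 36.6 CPM in refed control livers, with no overlap. It fell by 0.29 on the log2 scale (SE 0.09, edgeR adjusted p = 0.0488), a call that was lost in 14 of the 16 fits that left out a library. In refed LKO livers Cdk4 stood at 41.96, 46.1, 43.8 and 44.7 CPM, above every refed control library, with a log2 fold change of 0.35 ± 0.09 that edgeR did not call and DESeq2 did. Cdk6 stood at 25.7, 27.4, 29.3 and 29.0 CPM in fasted control and 19.2, 15.7, 20.6 and 26.3 CPM in refed control livers, where S51 lay within the fasted range. It fell by 0.45 on the log2 scale (SE 0.13, edgeR adjusted p = 0.034, lost in 7 of the 16 fits that left out a library). In LKO livers Cdk6 was 27.7, 40.8, 33.1 and 31.1 CPM when fasted and 17.2, 18.4, 19.4 and 18.7 CPM when refed, groups that lay far apart (-0.85 ± 0.13), and this call was kept in every fit that left out a library. Cdk2, the partner of cyclins E and A, was 8.74, 11.2, 8.03 and 8.22 CPM in fasted control and 11.8, 12.5, 12.2 and 10.4 CPM in fasted LKO livers, where S41 overlapped with the knockout range. Its log2 fold change was 0.37 ± 0.12 (edgeR adjusted p = 0.047), lost in 13 of the 16 fits that left out a library.

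Of the E2F factors counted as G1 regulators, E2f4 and E2f6 were called in fasted livers. E2f4 was 21.3, 21.7, 20.5 and 22.9 CPM in fasted control and 19.5, 17.6, 16.9 and 17.8 CPM in fasted LKO livers, every knockout library lying below every control library. It fell by 0.27 on the log2 scale (SE 0.08, edgeR adjusted p = 0.0425, lost in 8 of the 16 fits that left out a library), and in refed livers the genotypes overlapped, at 23.3 ± 2.21 and 22.7 ± 1.14 CPM (SD, n = 4). E2f6, a repressor that acts without pocket proteins, was 13.7, 16.4, 13.1 and 11.7 CPM in fasted control and 21.8, 17.99, 20.8 and 15.2 CPM in fasted LKO livers, where S47 overlapped with the controls. It was higher by 0.46 ± 0.13 on the log2 scale (edgeR adjusted p = 0.0232, lost without S40, S42, S43, S44 or S46). E2f3 and E2f5 were called in 0 of the 5 comparisons.

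Of the pocket proteins, edgeR called the G1/S member Rbl1. Rb1, the retinoblastoma protein, was 4.07, 4.03, 3.10 and 4.70 CPM in fasted control and 5.84, 5.71, 5.10 and 5.35 CPM in fasted LKO livers, without overlap and not called by edgeR (0.47 ± 0.15, adjusted p = 0.0555). It was called by DESeq2 (adjusted p = 0.0496), with upper quartile scaling and without S43. Rbl2 (p130), the pocket protein of resting cells, lay between 11.1 and 22.0 CPM over all libraries and was not called by edgeR in any comparison. Rbl1 (p107) was 1.34, 1.11, 0.885 and 1.48 CPM in fasted control and 1.497, 0.792, 1.01 and 1.18 CPM in fasted LKO livers. In refed livers it was 1.53, 1.22, 1.55 and 1.02 CPM in control and 3.84, 1.57, 3.03 and 3.38 CPM in LKO livers, so that the lowest knockout library, S53, lay just above the highest control library. The refed log2 fold change was 1.15 ± 0.28, a call that was lost without S48, S49, S50, S51, S52, S54 or S55.

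The kinase inhibitors and Myc gave 1 call between them. Cdkn1a (p21), a p53 target that blocks cyclin-dependent kinases, was 9.63, 23.5, 15.7 and 18.4 CPM in fasted control and 32.2, 28.8, 12.4 and 112.7 CPM in fasted LKO livers. Refed, it was 15.8, 34.4, 4.98 and 9.57 CPM in control and 63.9, 27.4, 29.6 and 29.2 CPM in LKO livers. The spread within groups was wide, with S47 and S52 far above the other libraries of their groups, and the log2 fold changes of 1.47 ± 0.60 (fasted, edgeR adjusted p = 0.124) and 1.22 ± 0.60 (refed) were not called. Cdkn1b (p27) went from 18.3 ± 0.368 to 14.9 ± 1.53 CPM on refeeding of LKO mice (SD, n = 4; -0.30 ± 0.10, lost in 10 of the 16 fits that left out a library). Cdkn2c (p18) and Myc were not called in any comparison. Myc had means of 4.46 ± 1.61 and 4.76 ± 1.26 CPM in fasted control and LKO livers and of 2.88 ± 1.11 and 2.80 ± 0.63 CPM in the refed groups (SD, n = 4).

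E2f1 was the gene whose interaction of genotype and feeding was called. The gene (ENSMUSG00000027490) lies on chromosome 2 from 154401327 to 154411812 (mm39, minus strand). It stood at 6.26, 5.60, 6.07 and 5.68 CPM in fasted control livers and 2.15, 4.87, 2.13 and 4.54 CPM in fasted LKO livers, every knockout library below every control library. In the refed state it stood at 5.49, 5.31, 4.54 and 4.55 CPM in control and at 21.4, 7.78, 10.8 and 13.0 CPM in LKO livers, every knockout library above every control library. The order of the genotypes was thus opposite in the 2 states. The log2 fold change of LKO over control was -0.80 ± 0.30 in fasted livers (edgeR adjusted p = 0.0921, not called; called by DESeq2 and without S45 or S52) and 1.42 ± 0.28 in refed livers, and refeeding raised E2f1 in LKO livers by 1.96 ± 0.29. The interaction was 2.21 ± 0.41, and its call was lost without S40, S42, S43, S44, S46, S48, S50 or S55, with values of 1.88 to 2.45 over all alternatives. The 2 refed E2f1 calls were kept in every fit that left out a library.

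E2f2, another activating E2F factor, was 2.19, 1.28, 1.26 and 2.35 CPM in fasted control and 0.549, 0.905, 0.448 and 0.932 CPM in fasted LKO livers. It fell by 1.33 on the log2 scale (SE 0.42, edgeR adjusted p = 0.0495), without overlap, and the call was lost in 14 of the 16 fits that left out a library. In refed livers it was 1.73, 1.49, 2.19 and 1.36 CPM in control and 7.16, 1.70, 2.84 and 3.25 CPM in LKO livers, where S53 overlapped with the controls and edgeR made no call (1.14 ± 0.37), while DESeq2 did. From fasted to refed LKO livers it was higher by 2.41 ± 0.41 on the log2 scale, a call kept in every fit that left out a library.

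E2f8, an atypical E2F repressor, was high in the fasted LKO livers. It was 3.13, 3.79, 3.10 and 3.46 CPM in fasted control and 9.58, 5.60, 10.7 and 4.72 CPM in fasted LKO livers. Every fasted knockout library was higher than every control library, by 1.18 ± 0.37 on the log2 scale (edgeR adjusted p = 0.0476, lost in 11 of the 16 fits that left out a library). S44 and S46, the fasted LKO libraries with the highest E2f8, had the lowest E2f1 and E2f2 of their group. In refed livers E2f8 was 1.28, 1.86, 3.22 and 6.25 CPM in control and 5.68, 6.21, 3.89 and 3.34 CPM in LKO livers, with overlap and no call. E2f7 had 0 to 16 counts in a library and was not tested.

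Uhrf1, which recruits DNA methyltransferase to newly replicated DNA, had the largest fold changes of the 37 genes in the refed genotype comparison and in the refeeding of LKO mice. The gene (ENSMUSG00000001228) lies on chromosome 17 from 56610321 to 56630486 (mm39, plus strand). It was 0.546, 0.409, 0.569 and 0.371 CPM in fasted control and 0.449, 0.453, 0.729 and 0.435 CPM in fasted LKO livers, with no separation of the genotypes (edgeR adjusted p = 0.931). In refed livers it was 0.447, 1.49, 1.51 and 1.22 CPM in control and 21.0, 3.73, 6.92 and 9.96 CPM in LKO livers. The lowest of these knockout libraries lay above the highest control library, while the knockout libraries differed widely among themselves. In raw counts, refed control libraries held 7, 28, 38 and 18 and refed LKO libraries 410, 57, 112 and 230. The log2 fold changes were 3.12 ± 0.44 between the refed genotypes and 4.32 ± 0.49 between fasted and refed LKO livers, and both calls were kept in every fit that left out a library. In control livers refeeding gave 1.31 ± 0.55, which was not called (edgeR adjusted p = 0.116) and was called without S52.

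Of the enzymes of nucleotide supply, Rrm1 and Tyms were called higher in refed LKO livers. Rrm1, the large subunit of ribonucleotide reductase, was 4.07, 5.02, 4.61 and 6.67 CPM in fasted control, 5.84, 6.00, 7.79 and 5.78 CPM in fasted LKO, 6.45, 7.86, 7.88 and 6.25 CPM in refed control and 20.7, 9.81, 11.2 and 15.5 CPM in refed LKO livers. All 4 refed LKO libraries exceeded all 12 others, and the refed genotype log2 fold change was 1.01 ± 0.21 (lost without S48). Rrm2, its small subunit, was 2.68, 5.68, 2.35 and 1.90 CPM in refed control and 15.3, 3.92, 3.89 and 5.41 CPM in refed LKO livers. One refed control library, S49, lay above 3 of the 4 knockout libraries, and the log2 fold change of 1.18 ± 0.43 was not called. Rrm2 was however higher than in fasted LKO livers, at 1.20, 1.92, 0.841 and 1.43 CPM, by 2.41 ± 0.46 on the log2 scale. Tyms, thymidylate synthase, was 4.92, 6.21, 7.01 and 6.31 CPM in refed control and 14.2, 9.22, 8.40 and 9.23 CPM in refed LKO livers, without overlap (0.74 ± 0.17, lost without S48 or S52). In the fasted groups Tyms had near equal means of 5.98 ± 1.08 and 6.43 ± 0.281 CPM (SD, n = 4; edgeR adjusted p = 0.758).

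Of the cyclins and the phosphatase that start S phase, Cdc25a was called in refed livers. Cdc25a, which removes inhibitory phosphates from CDK2, was 3.07, 3.56, 4.74 and 3.19 CPM in refed control and 6.60, 5.76, 5.69 and 6.84 CPM in refed LKO livers. Its groups did not overlap and its refed LKO libraries were close together (0.76 ± 0.20, lost without S42, S43, S48, S49, S51, S52, S53, S54 or S55). Ccne1 was 0.639, 0.637, 1.75 and 1.83 CPM in refed control and 2.92, 1.90, 1.98 and 2.99 CPM in refed LKO livers, without overlap and not called (1.004 ± 0.36). Ccne2 was 1.15, 0.744, 1.99 and 1.70 CPM in refed control and 3.63, 1.37, 2.16 and 2.77 CPM in refed LKO livers, where S53 overlapped (0.83 ± 0.34, not called). Ccne2 was called higher in refed than in fasted LKO livers (1.30 ± 0.36), and that call was lost without S47 or S52.

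**Figure D2:**
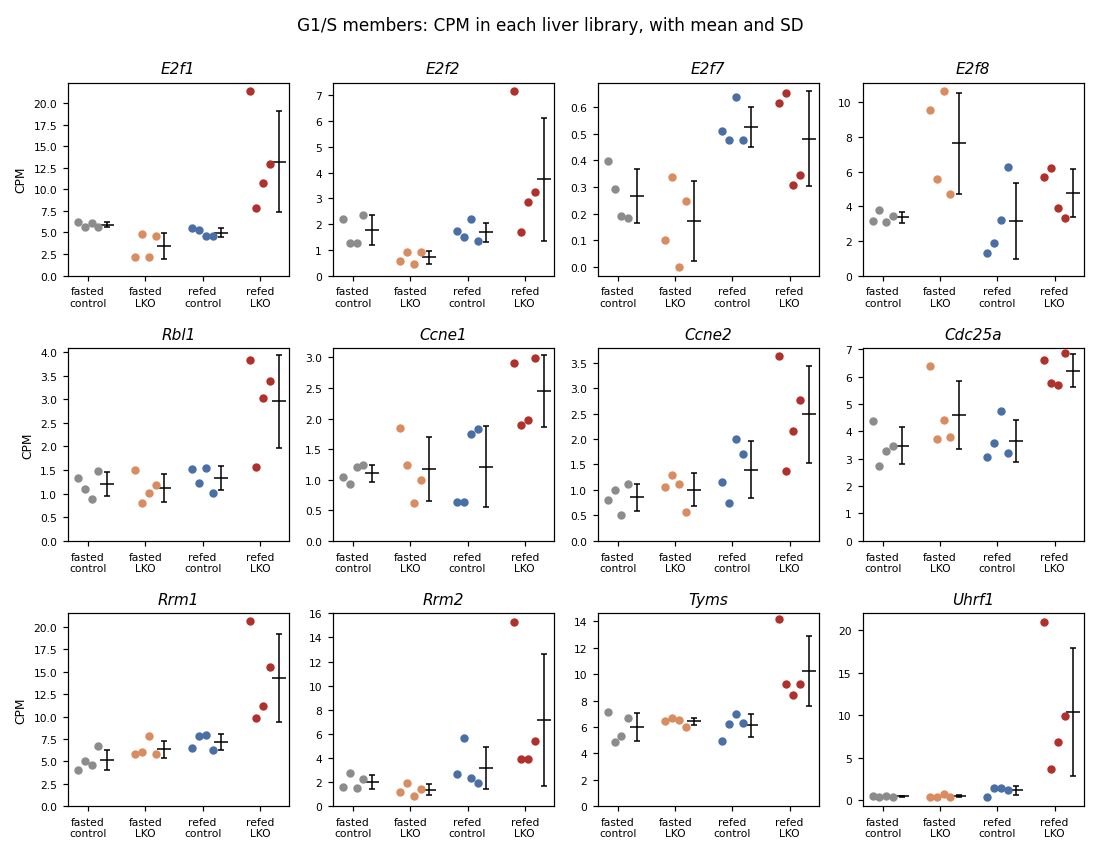
Level of each of the 12 G1/S genes in each library (y axis, CPM), by group (x axis); points are libraries in the order of their column names within each group, and the bars beside them are the mean and SD (n = 4). For E2f1, Rrm1, Tyms and Uhrf1 every refed LKO point lies above all points of the other groups, and S52, the leftmost refed LKO point, is the highest of the 4 for E2f1 at 21.4 CPM and Uhrf1 at 21.0 CPM.

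Of the mitotic genes, Cdk1 and Top2a were the called ones in refed LKO livers. Cdk1 (ENSMUSG00000019942) lies on chromosome 10 from 69170976 to 69188768 and Top2a (ENSMUSG00000020914) on chromosome 11 from 98883769 to 98915015, both on the minus strand of mm39. Cdk1 was 1.74, 1.17, 1.33 and 0.741 CPM in fasted control, 0.549, 0.679, 1.12 and 1.31 CPM in fasted LKO, 0.575, 0.903, 0.398 and 1.15 CPM in refed control and 6.04, 1.64, 0.989 and 2.56 CPM in refed LKO livers. The groups overlapped, since S54 lay below the refed control library S51. The refed genotype log2 fold change was 1.93 ± 0.50 and lay at 1.24 to 2.20 over the alternatives, and the call was lost without S41, S42, S48, S49, S50, S52 or S55 and by limma-voom. Top2a, the topoisomerase that untangles sister chromatids, was 0.319, 1.06, 0.677 and 0.543 CPM in refed control and 5.94, 1.24, 1.42 and 3.25 CPM in refed LKO livers. Each knockout library exceeded each control library, by 2.17 ± 0.51 on the log2 scale, and the call was lost without S48, S50, S51, S52 or S55 and by limma-voom. In fasted livers Top2a had means of 0.739 ± 0.261 CPM in control and 0.72 ± 0.475 CPM in LKO (SD, n = 4; edgeR adjusted p = 0.958).

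A further 3 mitotic genes were separated in refed livers without a call by edgeR. Cdc20 was 0.256, 0.266, 0.796 and 0.136 CPM in refed control and 3.53, 1.18, 0.989 and 1.21 CPM in refed LKO livers (2.13 ± 0.65). It overlaps Elovl1 on the other strand, and whether the counting used strand is not given in the sources used here. Bub1b, the checkpoint protein BUBR1, was 0.192, 0.425, 0.557 and 0.339 CPM in refed control and 1.64, 0.720, 0.927 and 0.996 CPM in refed LKO livers (1.45 ± 0.45). Ccna2, the cyclin of S phase and G2, was 0.575, 0.584, 0.358 and 0.339 CPM in refed control and 1.48, 0.916, 0.742 and 0.693 CPM in refed LKO livers (1.05 ± 0.43). In all 3 of these genes each refed LKO library exceeded each refed control library, and DESeq2 called Cdc20 and Bub1b. Since Bub1b passed the filter only through its high counts in the refed LKO libraries, its separation and its call follow in part from that filter and support nothing.

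The other 5 mitotic genes that were tested had refed genotypes that overlapped. Ccnb2, a cyclin of mitosis, ran the other way from most of its group, at 0.703, 0.637, 0.796 and 0.475 CPM in refed control and 0.256, 0.523, 0.185 and 0.520 CPM in refed LKO livers (-0.81 ± 0.53, not called). Against the fasted LKO libraries, at 0.799, 0.905, 0.448 and 2.49 CPM, its refed level was called lower by -1.60 ± 0.51 on the log2 scale, and this call was lost without S47, S52, S54 or S55, by limma-voom and with no filter on low counts. Mki67, the proliferation marker Ki-67, was 1.02, 0.956, 0.796 and 0.815 CPM in refed control and 1.64, 0.981, 0.865 and 0.866 CPM in refed LKO livers. Its 3 lower knockout libraries lay inside the control range, and the log2 fold change was 0.28 ± 0.41 with a 95% interval of -0.58 to 1.15. Aurka was 2.94, 4.67, 3.66 and 3.53 CPM in refed control and 5.94, 3.14, 3.89 and 5.76 CPM in refed LKO livers (0.35 ± 0.22, not called). Plk1, a kinase of mitotic entry, and Aurkb, a kinase of the chromosomal passenger complex, had refed log2 fold changes of 0.49 ± 0.54 and 1.01 ± 0.79 and were not called. Aurkb passed the filter only through the refed LKO libraries, so its value follows in part from that filter and supports nothing. Ccnb1 had 1 to 16 counts in a library. Bub1 had 2, 1, 1 and 0 counts in refed control and 8, 2, 3 and 4 counts in refed LKO libraries, against 0 to 3 counts in the 8 fasted libraries. At 0.128, 0.0531, 0.0398 and 0 CPM in refed control and 0.409, 0.131, 0.185 and 0.173 CPM in refed LKO livers, Bub1 had groups that did not overlap, and at such counts it was not tested.

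**Figure D3:**
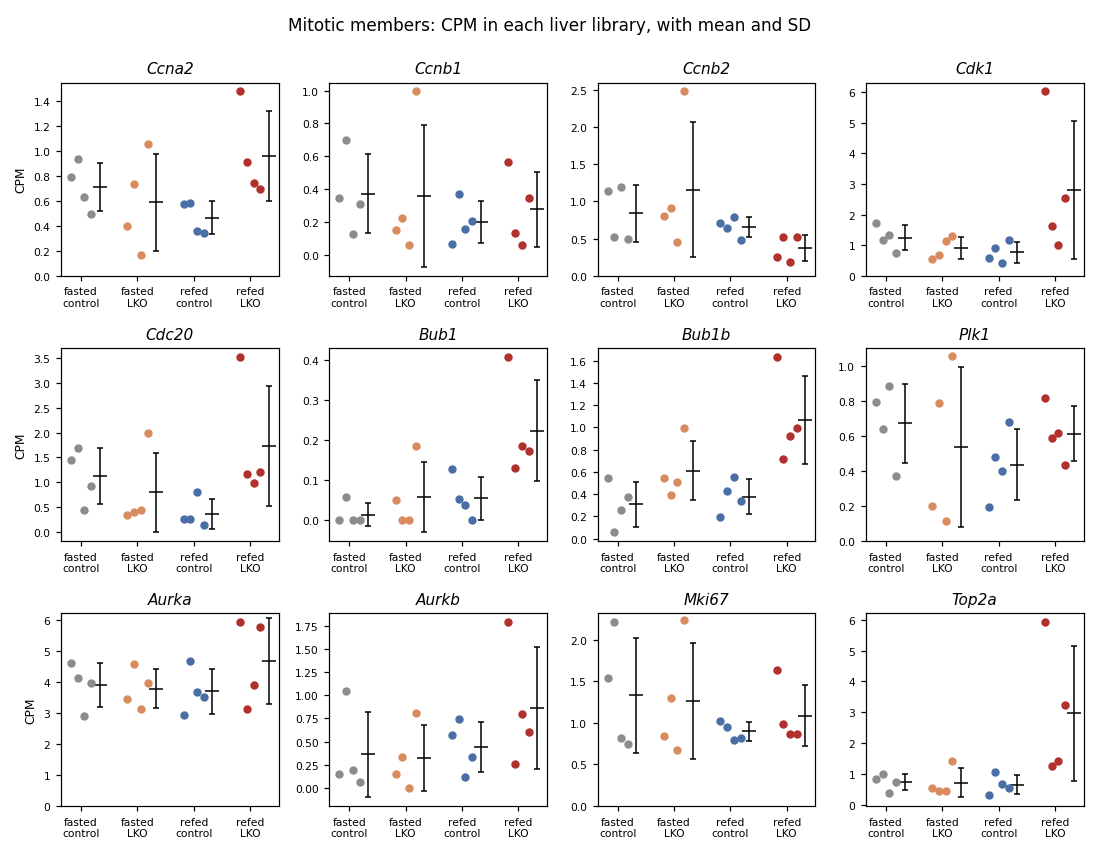
Level of each of the 12 mitotic genes in each library (y axis, CPM), by group (x axis); points are libraries in the order of their column names within each group, and the bars beside them are the mean and SD (n = 4). Most levels lie under 3 CPM; S52, the leftmost refed LKO point, is the highest for Cdk1 at 6.04 and Top2a at 5.94 CPM, and S47, the rightmost fasted LKO point, for Ccnb2 at 2.49 CPM.

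Set side by side, the sums of the G1/S genes and of the mitotic genes differed in level and in how far the refed LKO libraries stood apart. The median log2 fold changes between the refed genotypes were 1.01 and 1.03. The mitotic median includes Bub1b (1.45) and Aurkb (1.01), which passed the filter only through the refed LKO libraries. These medians are therefore no support for near equal changes. The summed level of the 12 G1/S genes was 31.5 ± 2.90 CPM in fasted control livers, 34.5 ± 2.91 CPM in fasted LKO livers, 35.5 ± 3.99 CPM in refed control livers and 78.4 ± 31.1 CPM in refed LKO livers (SD, n = 4). By library the refed LKO sums were 123, 53.6, 61.1 and 76.0 CPM in S52 to S55, all above the highest of the other 12 libraries, 39.4 CPM in S50. The summed level of the 12 mitotic genes was 11.6 ± 2.82, 11.1 ± 5.18, 9.0 ± 1.53 and 17.6 ± 8.71 CPM in the same order of groups (SD, n = 4). Here the refed LKO sums were 30.0, 11.5, 11.7 and 17.4 CPM, so that S53 and S54 stood barely above the highest refed control library at 11.2 CPM and below the fasted LKO library S47 at 18.5 CPM.

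The ratio of the G1/S to the mitotic sum was 2.84 ± 0.767 in fasted control livers, 3.63 ± 1.56 in fasted LKO livers, 3.99 ± 0.521 in refed control livers and 4.59 ± 0.487 in refed LKO livers (SD, n = 4). The refed genotypes overlapped in this ratio, at 3.28 to 4.50 in control and 4.10 to 5.23 in LKO livers. S47 had the lowest ratio of all, 1.65, with the highest mitotic sum of its group and the lowest G1/S sum. It was the highest of the fasted LKO libraries in 9 of the 10 mitotic genes tested, while S46 was the lowest in 7. Without S52 the median log2 fold change of the mitotic genes between refed genotypes went from 1.03 to 0.56, and 0 of the 3 calls left were mitotic. Without S47 the fasted median of the mitotic genes went from -0.15 to -0.65.

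**Figure D4:**
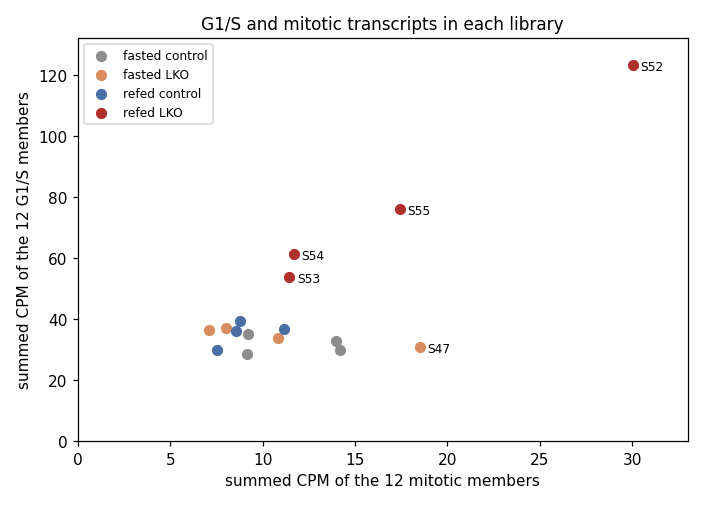
Summed CPM of the 12 G1/S genes (y axis) against summed CPM of the 12 mitotic genes (x axis); each point is 1 library, coloured by group. The 4 refed LKO libraries lie above 50 CPM on the y axis and the other 12 below 40 CPM, while on the x axis S53 and S54 lie among the other groups and S47 lies to the right of 3 of the 4 refed LKO libraries.

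Other genes of the cycle were taken from lists drawn up with earlier results of these data known. In those results genes of DNA replication had high read counts in refed knockout livers. Counts of calls in these lists are therefore a description and no support. Among 27 replication genes with enough counts, 19 were called higher and 0 lower in refed LKO against refed control livers, and 23 higher and 0 lower in refed against fasted LKO livers. The shares over all genes were 2.28% (higher) and 1.35% (lower) between the refed genotypes, and 9.28% and 8.78% for refeeding of LKO mice. For refeeding of control mice edgeR called 0 of the 27 (DESeq2 called 1), beside 7.79% of all genes called higher and 7.65% lower. Groups did not overlap in 5 genes that were higher and 1 that was lower, beside 10.4% and 10.1% of all genes. The median log2 fold change of this refeeding was 0.22, against 0.01 in all genes tested. In fasted livers 0 were called higher and 1 lower in LKO, Tk1 (thymidine kinase, -1.33 ± 0.31), beside 5.75% and 6.48% of all genes. Mcm5, part of the helicase that opens replication forks, had 4.26 ± 1.69 CPM in refed controls against 29.4 ± 14.1 CPM in refed LKO livers (SD, n = 4), and Cdc6, which loads that helicase, had the largest refed log2 fold change of the list, 3.39 ± 0.57. On refeeding of control mice Mcm5 was called in 8 of the alternative fits. Among 23 further mitotic genes with enough counts, 5 were called higher and 0 lower in refed LKO against refed control livers, beside 2.28% and 1.35% of all genes; Cdca8 (1.60 ± 0.37), Nek2 (1.47 ± 0.36) and Spc25 (1.08 ± 0.19) were among them. Spc25, a part of the kinetochore, was called higher in fasted LKO livers as well (1.21 ± 0.19, edgeR adjusted p = 0.00103), at 5.34 ± 1.23 CPM in fasted control and 12.3 ± 1.45 CPM in fasted LKO against 5.77 ± 1.49 and 12.2 ± 2.27 CPM in refed control and refed LKO livers (SD, n = 4). Between the refed genotypes the median log2 fold change was 1.502 in the replication genes and 0.53 in these mitotic genes, against -0.01 in all genes tested. The 5 mitotic calls became 1 without S48, S49 or S55, 3 without S50 or S53 and 2 without S52, while the 19 replication calls became 14 without S48, S52 or S55.

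Among 26 further regulators of the kinases and of E2F, 4 were called higher and 1 lower in refed LKO against refed control livers, beside 2.28% and 1.35% of all genes. Pkmyt1, a kinase that restrains CDK1, was higher by 2.14 ± 0.50 and Lin9, a subunit of the complex that holds and then activates mitotic genes, by 1.30 ± 0.27 on the log2 scale. Ccng2, a cyclin G of resting cells, was the lower one, at -0.75 ± 0.17, while in fasted livers it was higher in LKO by 0.69 ± 0.17; its interaction of -1.44 ± 0.24 was called and was lost without S48. The 5 calls of this list became 0 without S48 or S55, 2 without S50 or S52 and 3 without S51. Of 18 p53 targets, 5 were called higher and 0 lower in refed LKO livers, beside 2.28% and 1.35% of all genes, with the highest fold changes in Eda2r (3.81 ± 0.53) and Phlda3 (2.05 ± 0.38). Eda2r had near equal means in fasted and refed LKO livers, 1.43 ± 0.344 and 1.43 ± 0.141 CPM, and differed in the controls, at 0.755 ± 0.442 CPM fasted and 0.104 ± 0.117 CPM refed (SD, n = 4). The refed control mean lay under what a count of 0 allows, and Eda2r fell on refeeding of control mice by 2.89 on the log2 scale (SE 0.57, edgeR adjusted p = 0.00382). In fasted LKO livers 3 of the 18 were called higher (Tnfrsf10b, Phlda3 and Plk2) and 0 lower, beside 5.75% and 6.48% of all genes. The 5 refed calls of p53 targets became 2 without S48 and 3 without S49, S50, S52 or S55, and the 3 fasted calls became 5 without S43, S45 or S49.

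Of the markers of other cells, Jchain (plasma cells) was called between genotypes in both states, Cfd (fat cells), Alas2 (red blood cells) and Dcn (fibroblasts) in fasted livers, and Clec4g (endothelial cells) in refed livers. The 6 markers of B and plasma cells summed to 3.98 to 7.94 CPM in fasted control, 13.1 to 33.7 in fasted LKO, 4.18 to 6.69 in refed control and 17.0 to 38.9 CPM in refed LKO livers, most of it Jchain in the LKO livers. Jchain was called higher in LKO livers in the fasted and the refed state (3.35 ± 0.45 and 3.86 ± 0.45 on the log2 scale), and the other 3 B and plasma cell markers tested were not called. The 8 T cell markers summed to 2.72 to 5.52 CPM in refed control and 5.53 to 8.90 CPM in refed LKO livers, and 0 of the 8 were called. S52, the library with the most G1/S and mitotic RNA, had the lowest sum of both lists among the 4 refed LKO libraries, 17.0 and 5.53 CPM. S52 was also lowest in the endothelial and the stellate cell or fibroblast markers, at 131 and 168 CPM. It was the highest of them in the red blood cell markers, at 974 CPM against 558, 353 and 219 CPM in S53 to S55. In the bile duct markers S52 was highest as well, at 38.5 CPM against 34.5, 37.9 and 36.4 CPM. The 8 macrophage markers summed to 215 to 822 CPM in refed control and 226 to 334 CPM in refed LKO livers, with overlap and 0 of 8 called. The 4 fat cell markers summed to 9.81 to 58.1 CPM in fasted control, 0.448 to 9.63 in fasted LKO, 2.34 to 33.1 in refed control and 0.52 to 3.46 CPM in refed LKO livers. Nearly all of this was Cfd, called lower in fasted LKO livers (-3.45 ± 0.88, edgeR adjusted p = 0.0182) and not in refed ones (-3.18 ± 0.93). In refed LKO livers Lep was at 0 and Adipoq and Plin1 at means of 0.0164 and 0.0464 CPM, against 0 for Lep and Adipoq and 0.0499 CPM for Plin1 in refed controls. The part of these cells in the levels given above was not tested. Neutrophil markers summed to 1.70 to 3.34 CPM in refed LKO livers, with Ly6g and Retnlg at 0 in all 4 of those libraries and 0 of the 2 markers tested called.

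The authors' deposited table of the refed genotype comparison gave 10 of the 40 genes an adjusted p under 0.05, all higher in LKO. Their deposited table of refed against fasted LKO livers gave 13 higher and 2 lower. Their deposited table of the fasted genotypes gave 1 higher and 2 lower, and that of refed against fasted control livers 1 higher and 3 lower. The shares of all genes under 0.05 in the authors' comparisons are not given here. These counts therefore cannot be read as more or fewer than among all genes. The genes named above that overlap another listed gene are E2f3, E2f5, Rb1, Rbl2, the 3 D-type cyclins, Cdk2, Cdk4, Cdk6, Cdkn1a, Cdkn2c, E2f8, Rbl1, Ccne2, Rrm1, Ccna2, Cdc20 and Plk1. For these, reads of the 2 genes may have been shared or set aside by the counting.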

How the data were processed

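Libraries were built from poly-A RNA by random priming with dUTP, per the labels' protocols. Per the submitters' processing notes, HISAT2 2.0.5 and mm39 were used. The counting tool, the annotation and the use of strand are not given in the sources used here. Read counts, not normalized, were deposited by the authors in 4 tables of 8 libraries each, along with gene lengths in bases, log2 fold changes and adjusted p-values of their own comparisons. These deposited log2 and p-values were used only for the counts credited to the authors' deposited table. Per-library values in another 64 columns were left out. A count column was given its group from the heading shared by the 2 tables that hold it, and no replicate number could be attached to one.

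The 4 tables were merged by gene identifier, which gave 25803 genes, with 0 counts differing between tables. A gene missing from both tables of a library was set to 0 there (3148 genes). In R 4.3.3, 14488 genes passed edgeR 4.0.16 filterByExpr, were scaled by TMM factors (0.941 to 1.07) and were fitted with glmQLFit over 4 groups and 16 libraries. Quasi-likelihood tests were adjusted by Benjamini-Hochberg over all genes tested and called under 0.05. An SE is the log2 fold change divided by the root of F. CPM is a count over the TMM-scaled library total. The method was tested on simulated data. Alternatives were other scalings and filters, DESeq2 1.42.0, limma-voom (limma 3.58.1), fits of only the groups compared, and leaving out each library. The genes described and all lists were chosen with earlier results of these data known. Any of the 40 genes may be named, and of each other list up to 3 called genes per comparison, by size of change. Promoter windows came from RefSeq (GRCm38.p6), without the bases after the start.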

Additional observations from a re-analysis of the deposited data

Results flagged for a closer look

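A library apart was looked for in 156 groups of 4 libraries (the 37 genes tested, the G1/S sum and the mitotic sum, by 4 groups). In 14 of them a library's gap to its nearest neighbour exceeded, as a share of the group's range, Dixon's 95% critical value. For independent, normally distributed values chance gives such a gap in about 1 in 20 groups. The groups here share the same libraries and CPM need not be normally distributed, so the 14 cannot be read against that share. In refed LKO livers it was S52 that stood apart and high: Rbl2 at 15.6 CPM, Cdkn1a at 63.9 CPM, Rrm2 at 15.3 CPM, Tyms at 14.2 CPM, Cdc20 at 3.53 CPM and Mki67 at 1.64 CPM. In fasted LKO livers S47 stood apart and high in Cdkn2c at 7.02 CPM, Cdc20 at 1.99 CPM and Top2a at 1.43 CPM, and S46 in Rrm1 at 7.79 CPM and Uhrf1 at 0.729 CPM. In the control groups S41 was low in Rbl2 at 13.9 CPM and high in Aurkb at 1.05 CPM when fasted, and S51 was low in Ccnd2 at 3.46 CPM when refed. The effect of the knockout on E2f1 differed between the feeding states by 2.21 on the log2 scale, by the interaction term of edgeR, a gene and contrast known from an earlier look at these data.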

How the results depend on the processing

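The columns carry no replicate number. No paired analysis was possible because the count columns could not be matched to the numbers 1 to 4 of the sample titles, so the planned fit with a replicate block was not run. No called single gene reversed its sign. Fasted genotype calls, 5 in all, were 2 with no low-count filter, 3 with a mean of at least 5 CPM, 2 with only the groups compared, and 0 to 3 over the fits that left out a library. Refed genotype calls, 8 in all, were 4 with a mean of at least 5 CPM (14 of the genes were then tested), 5 with only the groups compared, 12 by DESeq2, and 2 to 10 on leaving out a library. Interaction calls, 1 in all, were 2 with no low-count filter, 3 by DESeq2 and 0 to 3 on leaving out a library. Calls for refeeding of LKO mice, 16 in all, were 7 with a mean of at least 5 CPM and 10 to 17 on leaving out a library. Calls for refeeding of control mice, 3 in all, were 5 by DESeq2 and 0 to 4 on leaving out a library. On leaving out a library the median log2 fold change of the mitotic genes lay at -0.65 to 0.10 for the fasted genotypes, 0.56 to 1.18 for the refed genotypes and 0.50 to 1.57 for the interaction. Medians of the G1/S genes lay at 0.73 to 1.15 for the refed genotypes. The causes were not tested, beside the smaller number of genes or libraries in these fits. Low counts, such as 5 to 116 in a library for Top2a, limit the precision of the mitotic genes. Over single genes and alternatives, 6958 of the results kept their side of the threshold and their direction. A further 318 lost a call, 84 gained one, and 159 were uncalled genes whose sign changed.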
